A study of Mus musculus with 16 samples.

Results

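The genes described here are the 8 that write, maintain and remove cytosine methylation in mouse DNA: the maintenance methyltransferase Dnmt1 and its recruiter Uhrf1, the de novo methyltransferases Dnmt3a and Dnmt3b, the dioxygenases Tet1, Tet2 and Tet3, and the glycosylase Tdg. They were taken by symbol from the 27998 genes of the single-cell count matrices, and 35 of the 86510 differentially methylated regions in the authors' deposited table were annotated to them. All samples were kidney of C57BL/6 mice, either wild type or Gulo-/-. Each genotype had 2 samples in each assay: RNA sequencing of single cells, bisulfite sequencing of the genome, and m6A immunoprecipitation with its input RNA, of which the last was not analysed here. Gulo codes for L-gulonolactone oxidase, with which mice make their own vitamin C (ascorbate), so mice without it depend on the diet. The allele, age, diet and number of animals are not given in the sources used here. Per the labels' protocols, kidneys were chopped and mixed before they were shared among the assays. Nothing in the labels ties samples to separate animals, so p-values below measure only how far these samples spread. In the single-cell data that spread includes sex, which differed between the libraries of each genotype.

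Cytosine methylation at CpG sites is copied after DNA replication when UHRF1 binds hemimethylated DNA and brings DNMT1 to it, while DNMT3A and DNMT3B set new marks. TET enzymes oxidise 5-methylcytosine stepwise to 5-hydroxymethylcytosine, 5-formylcytosine and 5-carboxylcytosine, with iron and 2-oxoglutarate as requirements, and ascorbate raises their activity. TDG cuts out 5-formylcytosine and 5-carboxylcytosine, and base excision repair then puts in an unmodified cytosine. Kidney is among the tissues rich in 5-hydroxymethylcytosine, and most of its cells do not divide.

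The wild type libraries held 10208946 and 61688164 UMIs (unique molecular identifiers, each counting 1 RNA molecule) for replicates 1 and 2, and the Gulo-/- libraries 10073836 and 88925323. After filtering, 1575, 7006, 1849 and 12403 barcodes remained in that order, with medians of 3014 to 4876.5 UMIs. The targeted gene, Gulo, had 0 and 1 UMIs in wild type against 0 and 2 in Gulo-/- libraries, too few to check a label. Counts of Xist and Ddx3y showed wild type replicate 1 and Gulo-/- replicate 2 to be female and the other two male. Both wild type libraries carried 986 barcodes in common, and the copies in the male replicate 2 held 2161 Xist UMIs against 8 of Ddx3y. These copies were left out of replicate 2. Cells were assigned to types by a gate on UMIs of marker genes, and barcodes without a clear leading type stayed out. The proximal tubule gate took 81.8% and 83.4% of wild type barcodes and 45.4% and 22.3% of Gulo-/- barcodes. The 3 other gates with at least 20 barcodes in every library were the thick ascending limb, endothelial, and macrophage and monocyte gates. In each of them its own markers summed to at least 8798 of every 1000000 UMIs in every library. The gates were set on these same markers, so the sums are no independent check of cell type.

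The start sites of the 8 genes differ in how much CpG they offer to the enzymes they encode. All 8 were matched in the RefSeq table for GRCm38.p6 (the build known as mm10), in windows from 250 bases before to 50 after each start. The Dnmt3b window is shown because it is the window of the 8 genes that a region annotated to them overlaps. Regions annotated to other genes were not compared with the windows. A Uhrf1 window is shown because Uhrf1 levels in dividing cells are described below. Whether this window bears on those levels was not tested. The Dnmt3b window, chr2:153649199-153649498 on the + strand, has in capitals the 81 bases of the region at chr2:153649411-153649491.
Dnmt3b: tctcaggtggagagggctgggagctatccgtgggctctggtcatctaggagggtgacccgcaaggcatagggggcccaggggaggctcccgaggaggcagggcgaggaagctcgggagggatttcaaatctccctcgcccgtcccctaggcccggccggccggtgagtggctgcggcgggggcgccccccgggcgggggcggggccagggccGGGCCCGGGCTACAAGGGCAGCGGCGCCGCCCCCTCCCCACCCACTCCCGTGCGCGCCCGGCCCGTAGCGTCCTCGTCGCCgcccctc
The Uhrf1 window shown, chr17:56303087-56303386 on the + strand, has in capitals its 1 match to the E2F-type motif TTCCCGC. The region of Uhrf1, chr17:56302539-56302909, ends before this window begins.
Uhrf1: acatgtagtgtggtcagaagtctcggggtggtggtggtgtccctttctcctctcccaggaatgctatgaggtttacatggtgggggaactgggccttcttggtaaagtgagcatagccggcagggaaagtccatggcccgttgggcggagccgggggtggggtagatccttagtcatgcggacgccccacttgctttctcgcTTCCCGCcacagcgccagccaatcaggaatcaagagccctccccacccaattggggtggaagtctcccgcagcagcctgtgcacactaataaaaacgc
The Dnmt3b window held 30 CpGs, more than 88.3% of all windows, and the capitals held 12, where the authors counted 11 CpGs in the region. The windows at the separate Dnmt1 starts held 2, 12 and 33 CpGs, and the Tet2 window held 57. The Uhrf1 window shown held 12 CpGs, and that of its other start, chr17:56304063-56304362, held 33. The motif TTCCCGC, searched on both strands, was found in 4.6% of the 32851 windows of the table and in no other window of the 8 genes. The CRE motif TGACGTCA was found in 1.79% of windows and stood in that of Tdg.

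None of the 8 genes was detected in more than 15.6% of the kept barcodes of any library. Over the kept barcodes of the 4 libraries Dnmt3a had 3380 UMIs, Tet2 2598, Tet3 2134, Tdg 1884, Dnmt1 977, Dnmt3b 299, Tet1 237 and Uhrf1 127. The median over the 19387 genes with any UMI was 626, so Dnmt3b, Tet1 and Uhrf1 lay below it. None of the 8 was among the 1919 entries for 13 clusters in the authors' deposited table of marker genes. Levels below are UMIs per 1000000 UMIs of the same gate and library (CPM). They are not divided by gene length and are compared within a gene only.

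Tet3 was the member called higher than in the proximal tubule in all 3 other gates, and in every library its proximal tubule level was the lowest of the 4 gates. In the proximal tubule gate Tet3 was at 5.25 and 4.07 CPM in wild type replicates 1 and 2, and at 10.3 and 12.4 in Gulo-/- replicates 1 and 2. In the endothelial gate the same libraries gave 43.6, 23.5, 22.9 and 39.8 CPM, so every library was above its own proximal tubule value. In the macrophage and monocyte gate they gave 31.2, 17.4, 52.6 and 22.9 CPM, again above in all 4. With the library as a block, Tet3 was higher by 1.28 ± 0.30 (log2, SE) in endothelial cells (edgeR quasi-likelihood test, Benjamini-Hochberg adjusted p = 0.000628). In macrophages and monocytes it was higher by 1.47 ± 0.38 (edgeR adjusted p = 0.00221). Both calls held in each alternative run, with adjusted p up to 0.00519 and 0.0102. Such calls are common between cell types: 66.3% of the 8434 genes tested were called in endothelial cells and 57.2% in macrophages and monocytes.

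The thick ascending limb, the salt-absorbing segment that dilutes urine, had more of 3 members than the proximal tubule. Tet2, which unlike Tet1 and Tet3 has no CXXC DNA-binding domain of its own, measured 25.02 and 45.7 CPM in wild type against 29.1 and 34.9 in Gulo-/- libraries. Its proximal tubule levels were 6.76 and 11.9 CPM in wild type and 22.5 and 16.3 in Gulo-/-, below the thick ascending limb in each library. The de novo methyltransferase Dnmt3a was at 66.7, 22.8, 32.0 and 33.2 CPM in the thick ascending limb (wild type replicates 1 and 2, then Gulo-/- 1 and 2) against 8.42, 13.5, 19.0 and 15.3 in the proximal tubule. Tet3 was at 25.02, 11.4, 37.8 and 18.0 CPM there. The differences were 1.05 ± 0.27 for Tet2, 1.04 ± 0.32 for Tet3 and 1.004 ± 0.33 for Dnmt3a (log2, SE; edgeR adjusted p = 0.00248, 0.00982 and 0.0161). Of all genes, 48.1% were called in this contrast, 22.4% as higher. The values of wild type replicate 1 rest on 28 barcodes, with 3 UMIs of Tet2, 3 of Tet3 and 8 of Dnmt3a. Leaving out 1 library ended some of these calls: Tet2 without wild type replicate 2 (edgeR adjusted p = 0.0733), Tet3 without that library (0.0514) or without Gulo-/- replicate 1 (0.0532), and Dnmt3a without wild type replicate 1 (0.0679) or without Gulo-/- replicate 2 (0.0588).

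Other members stood less clearly apart. Tet2 was called lower in endothelial cells than in the proximal tubule, by -0.75 ± 0.30 (edgeR adjusted p = 0.0328; 35.4% of all genes were called lower), but its endothelial levels were 5.82 and 4.70 CPM in wild type against 24.5 and 17.2 in Gulo-/- libraries. On the unscaled CPM the endothelial level was thus below that of the proximal tubule in both wild type libraries and above it in both Gulo-/- libraries. The call was lost with DESeq2 (adjusted p = 0.159), with a stricter gate (0.0689), with a mitochondrial limit of 25% (0.140) and without each single library: wild type replicate 1 (0.0922) or 2 (0.115) and Gulo-/- replicate 1 (0.0513) or 2 (0.258). Dnmt1 was at 17.4, 7.04, 19.6 and 17.2 CPM in the endothelial gate and at 2.35, 2.94, 6.08 and 8.06 in the proximal tubule, higher in all 4 libraries, with a difference of 0.89 ± 0.39 that missed the threshold (edgeR adjusted p = 0.0507) and passed it with DESeq2 (adjusted p = 0.0117). It also passed with edgeR without the filter (adjusted p = 0.0401), with the 25% mitochondrial limit (0.0356) and with the stricter gate (0.0110). Dnmt3a in macrophages and monocytes differed by 0.91 ± 0.41 (edgeR adjusted p = 0.0609; DESeq2 adjusted p = 0.0250). Tdg, the repair glycosylase, was not called in any of the 3 gates, with differences of 0.09 ± 0.31, 0.31 ± 0.30 and -0.49 ± 0.44 in the thick ascending limb, endothelial, and macrophage and monocyte gates. Its unscaled endothelial levels were 23.3, 11.7, 27.8 and 26.9 CPM against 7.73, 7.87, 13.2 and 13.2 in the proximal tubule, higher in all 4 libraries. In the thick ascending limb and in macrophages and monocytes the libraries did not share a direction. Tet1, Dnmt3b and Uhrf1 did not pass the filter on low counts. Without that filter Tet1, with 0 UMIs in the macrophage and monocyte gate in all 4 libraries, was called there (edgeR adjusted p = 0.0315).

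These log2 differences are relative to the TMM scaling of the whole profile. Between TMM and DESeq2's size factors the median of all genes moved from -0.02 to 0.12 in the thick ascending limb, from -0.07 to 0.16 in the endothelial, and from -0.27 to 0.00 in the macrophage and monocyte contrast. RNA of proximal tubule markers was present in the 3 gates tested against it, at 329 to 1435 CPM summed over 12 markers against 8677 to 14816 in the proximal tubule gate, and in each of these gates it was highest in wild type replicate 2. Its part in the differences between gates was not tested.

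**Figure D1:**
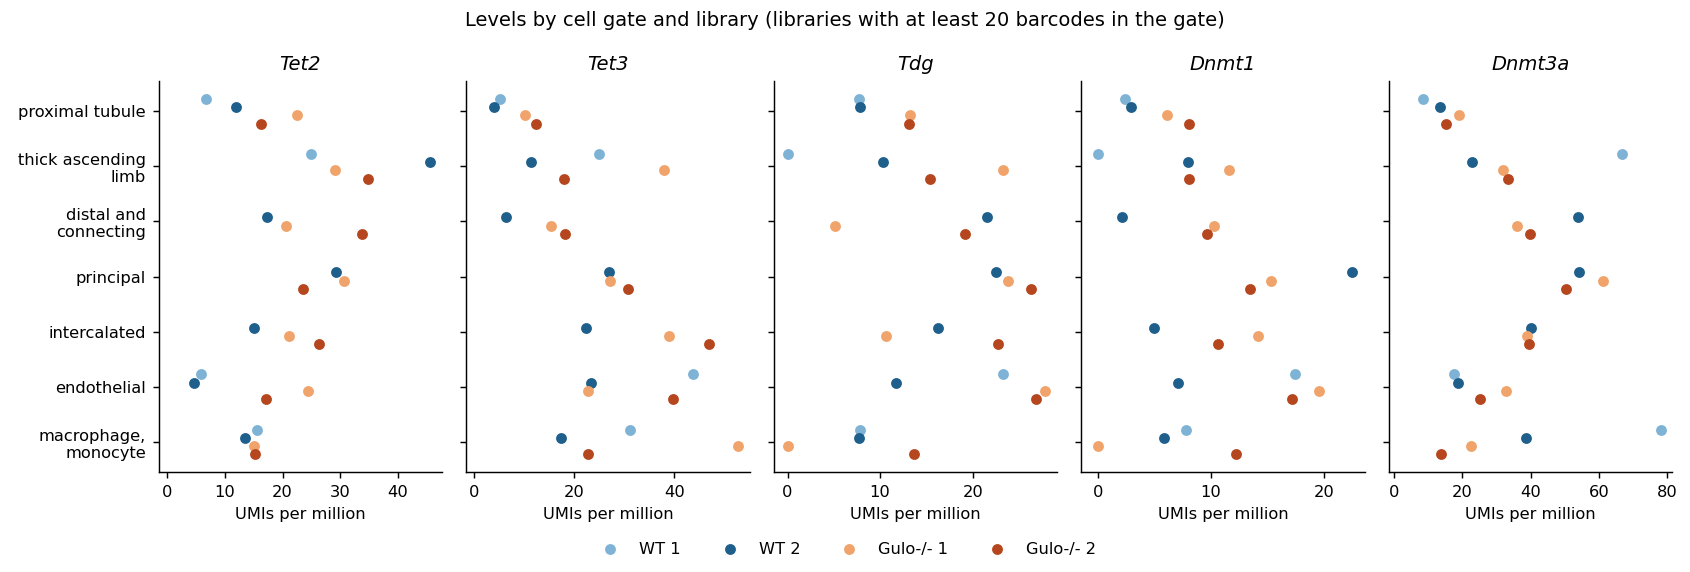
Levels of 5 members (UMIs per 1000000, x axis) by cell gate (y axis), 1 point per library with at least 20 barcodes in the gate. Tet3 in the endothelial gate lies between 22.9 and 43.6, to the right of all proximal tubule points, which reach 12.4.

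The distal segments had too few barcodes in wild type replicate 1 (3 to 10 per gate) for a test, and their levels are a description. Intercalated cells, which secrete acid or base, had Tet3 in the other libraries (wild type replicate 2, then both Gulo-/- ones) at 22.5, 38.9 and 46.8 CPM. Principal cells, which absorb sodium and water, had Dnmt3a at 54.0, 61.2 and 50.4 CPM. The distal convoluted and connecting tubule had Dnmt3a at 54.0, 35.9 and 39.8 CPM. All of these lay above the proximal tubule value of the same library. By library, the highest Dnmt3a level among the 5 tubule gates was in principal cells in both Gulo-/- libraries, while in wild type replicate 2 principal cells and the distal convoluted and connecting tubule gave the same value to 3 digits, on 24 and 25 UMIs.

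Between genotypes, the proximal tubule gave the widest view of the members, and none of them was called. Tet3 in the proximal tubule had 5.25 and 4.07 CPM in wild type against 10.3 and 12.4 in Gulo-/- libraries, on 38, 151, 39 and 138 UMIs, and the genotypes did not overlap. Its log2 difference was 1.15 ± 0.32 (edgeR adjusted p = 0.156), and the edgeR or DESeq2 adjusted p ranged from 0.0628 to 0.443 over the alternatives. Dnmt1 measured 2.35 and 2.94 CPM in wild type against 6.08 and 8.06 in Gulo-/- libraries, a difference of 1.26 ± 0.36 (edgeR adjusted p = 0.162). The larger counts of Tet2, 49, 443, 85 and 182 UMIs in the order above, gave 0.88 ± 0.34 (edgeR adjusted p = 0.262). Both Gulo-/- libraries were above both wild type libraries for these 3 genes.

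The other members ran the same way. Tdg measured 7.73 and 7.87 CPM in wild type against 13.2 and 13.2 in Gulo-/- libraries, with a difference of 0.60 ± 0.27 (edgeR adjusted p = 0.314). Dnmt3a was at 8.42 and 13.5 against 19.0 and 15.3 CPM, with 0.48 ± 0.31 (edgeR adjusted p = 0.475), and its closest libraries of different genotype were 13.5 and 15.3. Tet1 was at 1.66 and 0.647 against 2.91 and 3.49 CPM, on 12, 24, 11 and 39 UMIs (1.47 ± 0.63; edgeR adjusted p = 0.292). Dnmt3b had 4 and 15 UMIs in wild type against 4 and 22 in Gulo-/- libraries, or 0.552 and 0.404 against 1.06 and 1.97 CPM. Uhrf1 had 0 and 3 UMIs in wild type against 3 and 11 in Gulo-/- libraries. The count of 0 in wild type replicate 1 allows up to 0.509 CPM (exact Poisson 95% interval). Dnmt3b and Uhrf1 were both left out by the filter.

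The 6 members that passed the filter were all higher in both Gulo-/- libraries than in both wild type libraries, a pattern that 35.3% of the 11059 genes tested shared, while 16.7% showed the reverse. By the adjusted p, 0 of the 6 were called where 0.497% of all genes were (55 genes), and 0 with DESeq2. By the unadjusted edgeR p under 0.05, 4 of the 6 passed (Tet1, Tet2, Tet3 and Dnmt1), against 17% of all genes. Their median log2 difference was 1.01, and that of all genes tested was 0.03. No member was called in any alternative run on this gate. The lowest and highest log2 differences over those alternatives were 0.87 and 1.46 for Tet3, 1.08 and 1.38 for Dnmt1, and 0.56 and 1.26 for Tet2.

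Markers of other cell types in the same barcodes also differed between libraries. All 11 endothelial markers had UMIs in the proximal tubule gate in every library, with a sum of 15.9 and 19.4 CPM in wild type against 152 and 78.1 in Gulo-/- libraries. The 6 thick ascending limb markers, all detected, summed to 23.6 and 125 CPM in wild type and 94.9 and 718 in Gulo-/-, with the genotypes overlapping, and the 6 principal cell markers to 25.3 and 64.7 against 123 and 363. Immediate early genes, which respond to tissue dissociation, summed to 274 and 244 CPM in wild type and 626 and 780 in Gulo-/-, and the proximal tubule markers themselves to 14816 and 10532 against 9548 and 8677. Podocyte markers summed to 1.10 to 3.96 CPM. Erythroid markers overlapped between genotypes, at 38.2 and 547 CPM in wild type against 169 and 37.1 in Gulo-/-. Macrophage and monocyte markers did so too, at 14.9 and 44.5 against 24.3 and 25.8 CPM. The part of any of these in the members' differences was not tested.

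**Figure D2:**
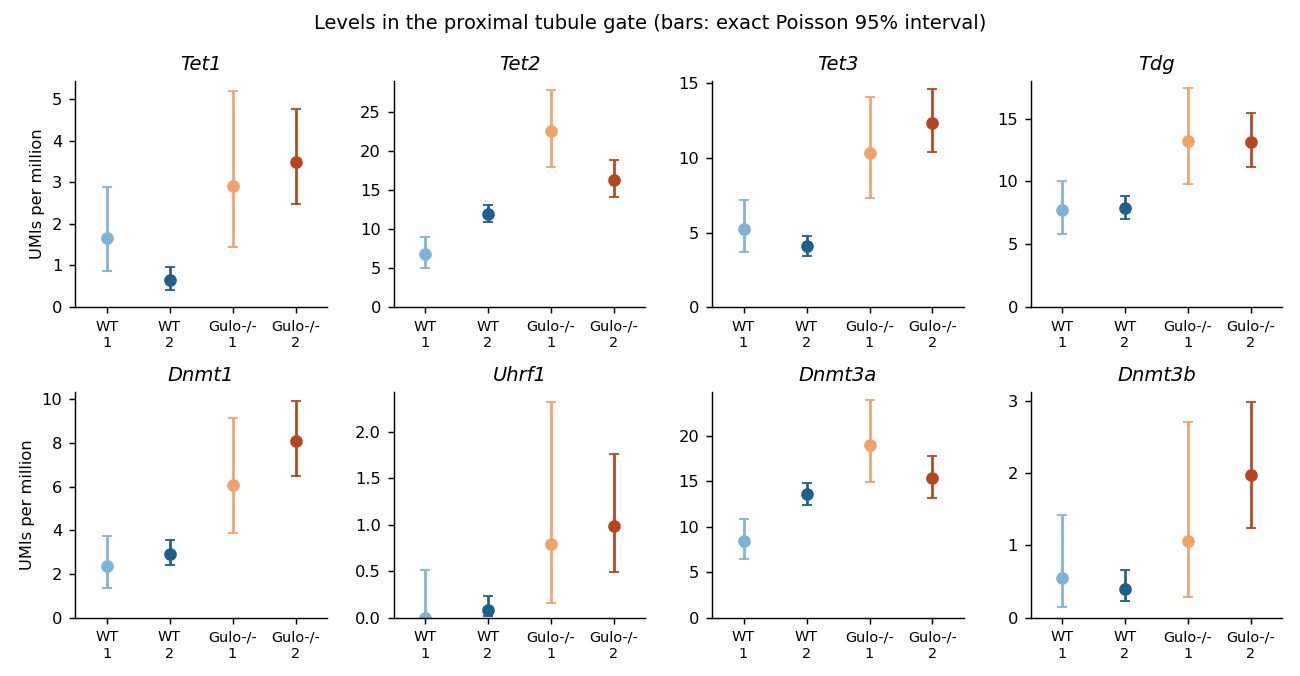
Levels of the 8 members in the proximal tubule gate (UMIs per 1000000, y axis starting at 0), 1 point per library with its exact Poisson 95% interval, which covers counting error only. In each panel both Gulo-/- points stand above both wild type points; for Dnmt3a the gap is from 13.5 to 15.3.

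Over all kept barcodes, in which the mix of cell types also differs, 7 of the 8 members were higher in both Gulo-/- libraries, against 54.8% of the 14038 genes tested. There, fewer cells of a type and less RNA per cell cannot be told apart. Summed over the 8 genes the level was 43.8 and 49.0 CPM in wild type against 101 and 122 in Gulo-/- libraries. The exception was Tet1, at 2.24 and 0.739 against 2.02 and 2.48 CPM. Of all genes 0% were called by edgeR, and 31.3% (4390) had an unadjusted p under 0.05, as did 3 of the 8 members: Tet3, Dnmt1 and Dnmt3a. DESeq2 called 2497 genes and no member. Tet3 was called only when genes of low count were kept in (1.12; edgeR adjusted p = 0.0420), beside 1.13 ± 0.30 and 0.0944 with the filter. Dnmt3a was at 12.3 and 16.2 against 30.5 and 34.0 CPM, and the difference was 0.65 ± 0.24 (edgeR adjusted p = 0.144).

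No member was called in the other gates either. In the endothelial gate Tet3 differed by -0.16 ± 0.42, Tdg by 0.51 ± 0.44 and Dnmt3a by 0.45 ± 0.44, and none was called (edgeR adjusted p = 0.953, 0.784 and 0.847), with 0.389% of 6170 genes called. Tdg there gave 23.3 and 11.7 CPM for wild type against 27.8 and 26.9, and Dnmt3a 17.4 and 18.8 against 32.7 and 25.1, so for both genes the Gulo-/- libraries were the higher ones, as for 27.6% of genes. Tet3 overlapped between genotypes. Tet2, at 5.82 and 4.70 CPM against 24.5 and 17.2 and without overlap, did not pass the filter, having 2 UMIs in each wild type library. Without the filter it differed by 1.81 ± 0.76 and was not called (edgeR adjusted p = 0.358). In the thick ascending limb gate Tet2 differed by -0.43 ± 0.41, Tet3 by 0.58 ± 0.59 and Dnmt3a by -0.07 ± 0.46 (edgeR adjusted p = 0.999 for each), with 1.41% of 5805 genes called, and the genotypes overlapped for all 3, where 24.1% of genes were higher and 11.5% lower without overlap. None of the 3 members tested in each gate had an unadjusted p under 0.05, against 9.61% of genes in the endothelial and 6.98% in the thick ascending limb gate, and DESeq2 called none.

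In the macrophage and monocyte gate Dnmt3a was lower in the Gulo-/- libraries. It had 10 and 20 UMIs in wild type against 3 and 9 in Gulo-/- libraries, or 78.0 and 38.6 CPM against 22.5 and 13.7, so both wild type libraries were higher. This order was shared by 9.57% of the 3542 genes tested. The difference was -1.95 ± 0.61 (edgeR adjusted p = 0.338), and it was not called in any alternative that gave an edgeR or DESeq2 adjusted p (0.0519 to 0.881). By edgeR 0% of genes were called in this gate, 7.91% (280) had an unadjusted p under 0.05, and DESeq2 called 2. Tet3 in the same cells differed by 0.30 ± 0.76 (edgeR adjusted p = 0.997), and Tet1 had 0 UMIs in all 4 libraries. Markers of other cells in this gate also differed: those of the thick ascending limb summed to 46.8 and 108 CPM in wild type against 150 and 832, with 3, 2, 3 and 6 of 6 detected. Principal cell markers summed to 0 and 34.8 against 67.6 and 341 CPM, with 0, 5, 4 and 6 of 6 detected. Neutrophil markers summed to 39.0 and 153 against 45.1 and 1446 CPM, with 1, 5, 3 and 5 of 6 detected. Proximal tubule markers were higher in both wild type libraries, at 437 and 1364 CPM against 368 and 329. Erythroid markers overlapped between genotypes, at 39.0 and 522 against 180 and 47.2 CPM. The part of these in the Dnmt3a difference was not tested.

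Whether the genotype difference itself differed between cell types was tested as an interaction with the proximal tubule. The members named here are those with an unadjusted p under 0.05, 1 in each contrast. None of the 7 members tested was called for endothelial cells, where 2.53% of 11486 genes were. Tet3 came nearest, with a genotype difference lower by -1.26 ± 0.54 in endothelial cells (edgeR adjusted p = 0.317). In the thick ascending limb, with 1.53% of 11645 genes called, the nearest was Tet2 at -1.03 ± 0.47 (edgeR adjusted p = 0.475). In macrophages and monocytes, with 0.162% of 10514 genes called, the nearest was Dnmt3a at -2.32 ± 0.75 (edgeR adjusted p = 0.294).

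**Figure D3:**
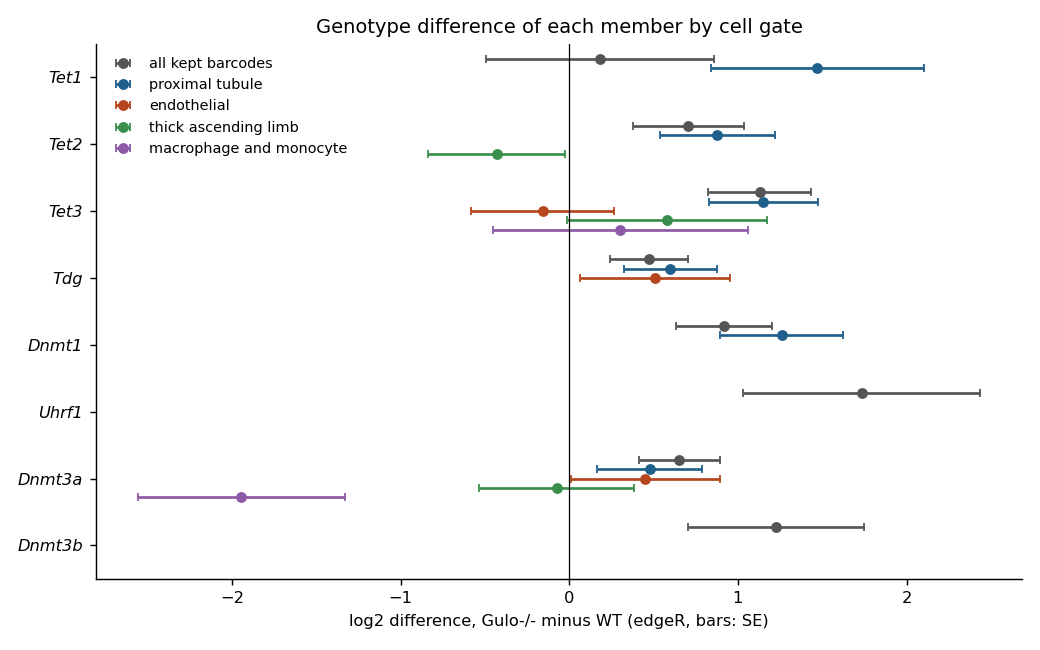
Log2 difference of Gulo-/- minus wild type (x axis; points, with SE as bars) for each member and gate in which it passed the filter. The proximal tubule points run from 0.48 for Dnmt3a to 1.47 for Tet1, and Dnmt3a in macrophages and monocytes is at -1.95.

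Uhrf1, which with Dnmt1 serves DNA replication, was concentrated in the few barcodes with RNA of dividing cells in both deep libraries. Such barcodes were those with at least 4 UMIs from at least 3 of 12 genes of S phase and mitosis (Mki67, Top2a, Cdk1 and others, none of them a member), a rule chosen after seeing the data. It took 7 and 11 barcodes in wild type against 0 and 63 in Gulo-/- libraries, of which 5, 2, 0 and 26 were in the proximal tubule gate. In wild type replicate 2 these barcodes held 10 of 17 Uhrf1 UMIs (58.8%) and 0.279% of all UMIs. In Gulo-/- replicate 2 they held 21 of 98 Uhrf1 UMIs (21.4%) and 0.641% of all UMIs. The Uhrf1 level was 82.7 CPM (exact Poisson 95% interval 39.7 to 152) in the dividing against 0.162 (0.0652 to 0.334) in the other barcodes of wild type replicate 2, and 47.5 (29.4 to 72.5) against 1.12 (0.885 to 1.40) in Gulo-/- replicate 2. The 7 dividing barcodes of wild type replicate 1 had 0 Uhrf1 UMIs, where a count of 0 allows up to 42.5 CPM. Each comparison lies within 1 library, so the intervals cover counting error only and no test between genotypes was made.

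Dnmt1, the enzyme that Uhrf1 recruits, showed a smaller step of the same direction, at 33.1 CPM (9.02 to 84.7) against 3.54 (3.01 to 4.15) in wild type replicate 2 and 52.0 (33.0 to 78.0) against 10.2 (9.47 to 11.0) in Gulo-/- replicate 2. Dnmt3a was at 82.7 (39.7 to 152) against 16.1 (14.9 to 17.3) CPM in wild type replicate 2, and at 52.0 (33.0 to 78.0) against 33.9 (32.5 to 35.3) in Gulo-/- replicate 2, where the intervals overlap. The Tet2 intervals overlapped in both libraries, at 8.27 (0.210 to 46.1) against 13.1 (12.0 to 14.2) and 13.6 (4.98 to 29.5) against 26.2 (24.99 to 27.4) CPM. Tet3 was at 33.1 (9.02 to 84.7) against 5.47 (4.79 to 6.21) CPM in wild type replicate 2, without overlap, and at 31.6 (17.3 to 53.1) against 24.4 (23.3 to 25.6) in Gulo-/- replicate 2, with overlap. Tet1 had 1 and 2 UMIs in the dividing barcodes of these libraries, and its intervals overlapped in both. For comparison Hells, a chromatin remodeller needed for normal DNA methylation, was at 66.2 against 0.718 CPM and at 61.0 against 1.78. In the barcodes outside the dividing ones Uhrf1 measured 0.119 and 0.162 CPM in wild type against 1.48 and 1.12 in Gulo-/- libraries, on 1, 7, 11 and 77 UMIs. Near the rule's limit, 8, 28, 7 and 46 barcodes had 3 UMIs of the 12 genes and were not taken, and 1, 1, 0 and 8 of those taken had 4.

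**Figure D4:**
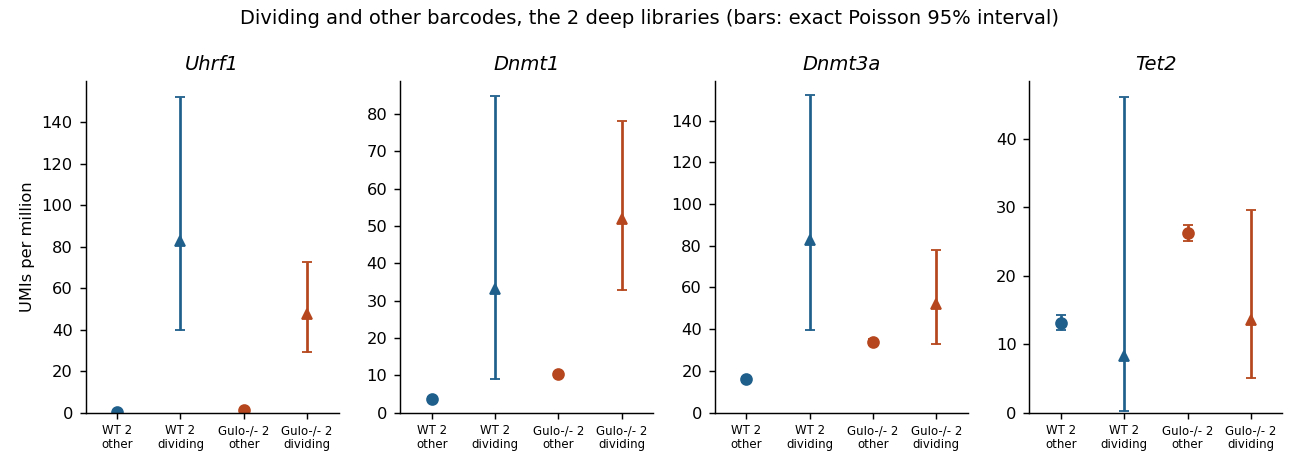
Levels of Uhrf1, Dnmt1, Dnmt3a and Tet2 (UMIs per 1000000, y axis starting at 0) in dividing barcodes (triangles) and all others (circles) of the 2 deep libraries, with exact Poisson 95% intervals. Uhrf1 stands at 82.7 and 47.5 in dividing and at 0.162 and 1.12 in other barcodes.

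Readers, partners and repair genes around the members were not called between genotypes. In the proximal tubule, 0 of 9 methyl-CpG readers, 0 of 10 partners that passed the filter, and 0 of 9 repair genes acting after TDG were called between genotypes by edgeR, and the same held over all kept barcodes. The medians in the proximal tubule were 0.21, 0.34 and 0.07 (log2), beside 0.03 for all genes. For 22 genes of S phase and mitosis, 19 passed the filter, 0 were called and the median was 0.66. Among the partners, Gadd45b, which links stress signals to demethylation, differed by 1.83 ± 0.68 (edgeR adjusted p = 0.245), Gadd45a by 0.60 ± 0.26 (edgeR adjusted p = 0.290) and Gadd45g by -0.15 ± 0.48 (edgeR adjusted p = 0.901). The 10 partners ran from -0.35 to 2.18, the last being Hells (2.18 ± 0.56; edgeR adjusted p = 0.137). In the interaction of genotype and gate for endothelial cells, 1 of 11 partners was called, as higher, beside 2.53% of all genes. For the thick ascending limb 1 of 9 repair genes was called, as lower, beside 1.53% of all genes. No other partner, repair gene or reader was called in an interaction.

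Between cell types, 9 partners that supply or bind these enzymes were tested. In the thick ascending limb 5 were called higher and 1 lower, where 22.4% of all genes were called higher and 25.7% lower. In endothelial cells 2 were higher and 3 lower, beside 30.9% and 35.4% of all genes, so the share called was below the 66.3% of all genes. In macrophages and monocytes 4 were higher and 3 lower, beside 22.9% and 34.3%. Idh1, a source of cytosolic 2-oxoglutarate, was lower than in the proximal tubule by -4.25 ± 0.27 in the thick ascending limb, -4.32 ± 0.26 in endothelial cells, and -3.31 ± 0.26 in macrophages and monocytes (edgeR adjusted p = 1.36e-10, 3.79e-12 and 2.51e-10). Its mitochondrial counterpart Idh2 was lower in the latter pair of gates, by -2.07 ± 0.21 and -2.41 ± 0.23, and higher in the thick ascending limb by 0.58 ± 0.20 (edgeR adjusted p = 1.03e-08, 6.77e-09 and 0.0186). Ogt, the GlcNAc transferase that binds TET2 and TET3, was higher in the thick ascending limb by 1.41 ± 0.21 (edgeR adjusted p = 6.85e-06). Gadd45b was higher in all 3 gates, by 3.17 ± 0.38, 4.28 ± 0.35 and 4.68 ± 0.39. It also responds to stress, and in the 3 gates the immediate early list summed to 726 to 15534 CPM against 244 to 780 in the proximal tubule, whose part was not tested. Cxxc5, a CXXC protein that binds TET2, was lower in endothelial cells by -2.78 ± 0.31 and in macrophages and monocytes by -2.60 ± 0.37.

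Of the readers of methylated CpG, 5 of the 7 tested were called in endothelial cells, all higher, where 30.9% of all genes were called higher. Among them were Zbtb4 (2.48 ± 0.31), Uhrf2 (1.48 ± 0.27), Mbd2 (0.92 ± 0.22) and Zbtb38 (0.84 ± 0.26). In the thick ascending limb 2 of the 7 were called, both higher, among them Zbtb4 (1.45 ± 0.34), beside 22.4% of all genes. In macrophages and monocytes 1 of the 7 was called, Uhrf2 (1.16 ± 0.33), also higher, beside 22.9% of all genes. The difference between gates in these counts was not tested. Of the 4 repair genes tested, 1 was called in the thick ascending limb, 2 in endothelial cells and 0 in macrophages and monocytes, no more than the 48.1%, 66.3% and 57.2% of all genes called. Apex1, the endonuclease that follows TDG, was lower in the thick ascending limb by -1.07 ± 0.34 and in endothelial cells by -2.23 ± 0.37, and Xrcc1 was higher in endothelial cells by 0.69 ± 0.26. All genes called in this and the preceding paragraph had an edgeR adjusted p under 0.05.

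Genes whose levels ran most like a member's over the 16 profiles (4 gates in 4 libraries, log2(CPM + 1), 10656 genes) were found by Pearson's r. Those profiles share libraries, and low counts share their depth, so r is a description. For Tet3 they were Gse1 (0.939), Eid1 (0.931) and Myh9 (0.905). For Dnmt1 they were Pou2f1 (0.969) and Ctdspl2 (0.967), with Tdg itself the third at 0.957. For Tdg they were Lars (0.979), Zfp358 (0.969) and Fam3a (0.963). Tet2 and Dnmt3a had no gene above 0.9: the first were Kcnj10 (0.851), 2610507B11Rik (0.846) and Plxnb2 (0.837) for Tet2, and Lemd2 (0.807), Ppp4r1 (0.797) and Phf6 (0.784) for Dnmt3a.

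The DNA around the members was itself differentially methylated in the authors' deposited table of bulk bisulfite sequencing. That table gives mean methylation on 2 sides without naming the genotype of either, and holds no coverage and no value per sample, so the 35 regions carry no error and their direction is given by side. In bulk tissue, fewer cells of a type and another level per cell cannot be told apart. The counts were 13 for Dnmt3a, 7 for Tet3, 5 for Tet2, 4 for Dnmt1, 3 for Dnmt3b, 2 for Tet1, 1 for Uhrf1 and 0 for Tdg. The median gene with any region had 3, and 7.20% of the 18425 such genes had 13 or more. Side 1 was the lower side in 27 of the 35 regions (77.1%) and in 53.8% of all 86510 regions. The median difference was 19.99 percentage points for the members' regions and 19.2 for all regions.

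Dnmt3a, on chromosome 12 (3801559 to 3914443), had 12 of its 13 regions lower on side 1. Of these, 6 lie upstream within Dtnb, the neighbouring gene for a dystrobrevin, between 3732610 and 3781179, and are tied to Dnmt3a only by the authors' assignment. The first is in exon 11 of Dtnb and had 70.1% on side 1 against 92.2% on side 2. Within Dnmt3a, 5 regions in intron 1 of the authors' transcript, from 5498 to 26715 bases past the start, were all lower on side 1, with differences of -15.4 to -27.9 points. The one farthest in, at 3833875 to 3834173, had 26.7% against 54.6% over 4 CpGs. The promoter region at 3807578 to 3808000, with 40 CpGs, had 19.4% against 32.5%. A single region, in the 3' UTR at 3909995 to 3910054, was higher on side 1, at 83.8% against 67.6% over 4 CpGs.

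Among the TET genes, Tet3 (chromosome 6, 83362373 to 83457208) had 3 promoter regions that did not share a direction. Those at 83456193 to 83456434 and 83456961 to 83457026 had 19.3% against 34.4% over 21 CpGs and 14% against 24.2% over 7 CpGs. The third, at 83454652 to 83455061, was highly methylated and higher on side 1, at 76.9% against 61.9% over 19 CpGs. The 3 intronic regions of Tet3 were all lower on side 1, by -17.2 to -23.8 points, and an intergenic one at 83465759 to 83465975 was higher, at 91.1% against 72.0%. Tet2 (chromosome 3, 133463677 to 133545136) held the second largest difference of the 35 in its intron 1, at 133517334 to 133517825, with 56.1% against 88.4% over 9 CpGs, a size exceeded by 2.67% of all regions. A Tet2 region classed as promoter, at 133488217 to 133488391 and 326 bases past the authors' start, was higher on side 1, at 88.5% against 74.9%. The 3 intergenic regions of Tet2 lay 57364 to 209984 bases upstream, and 2 of them were lower on side 1. Both Tet1 regions were intronic and lower on side 1, at 28.3% against 49.9% and 38.8% against 57.4%.

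The maintenance pair differed from each other. Uhrf1 had 1 region, 428 bases upstream of its start, with the lowest level of the 35, 10.8% on side 1 against 35.0% on side 2 over 11 CpGs. Dnmt1 (chromosome 9, 20907206 to 20959888) had 4 regions, and 3 were higher on side 1: exon 8 of its transcript at 94.8% against 82.5%, intron 1 at 90.6% against 74.9%, and exon 2 of the neighbouring S1pr2 at 93.0% against 82.2%. The fourth, in intron 1 at 20958488 to 20958613, had 55.0% against 70.2%. For Dnmt3b the capitals of the printed window mark the promoter region, which had 16.8% against 24.7%, the smallest difference of the 35. The largest of the 35 was an intergenic region 43985 bases past the Dnmt3b start (chromosome 2, 153693434 to 153693560), at 28.0% against 62.8% over 6 CpGs, a size exceeded by 1.497% of all regions.

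Promoters and other regions compared differently with the whole table. Of the 7 promoter regions of the members 5 were lower on side 1 (71.4%), against 78.5% of all 7867 promoter regions. Of the 28 regions elsewhere 22 were lower on side 1 (78.6%), against 51.3% of all regions outside promoters. Of these 22, 6 are the neighbouring Dtnb regions, so they are not independent of each other. Among regions with a difference of at least 20 points, 16 of 17 were lower on side 1 (94.1%), against 59.4% of all such regions. These 16 also include Dtnb regions, with differences of -20.04 to -22.1 points, so the same limit holds for this share. The partners had 70 of 84 regions lower on side 1 (83.3%), the readers 33 of 54 (61.1%) and the repair genes 14 of 21 (66.7%). The readers had 7 promoter regions, of which 6 were lower on side 1. One of the 6 is that of Zbtb33, at 23.9% against 45.5%, on chromosome X, and the sex of the bisulfite samples is not given in the labels. Mbd3 alone was higher on side 1, at 21.8% against 12.8% over 25 CpGs.

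**Figure D5:**
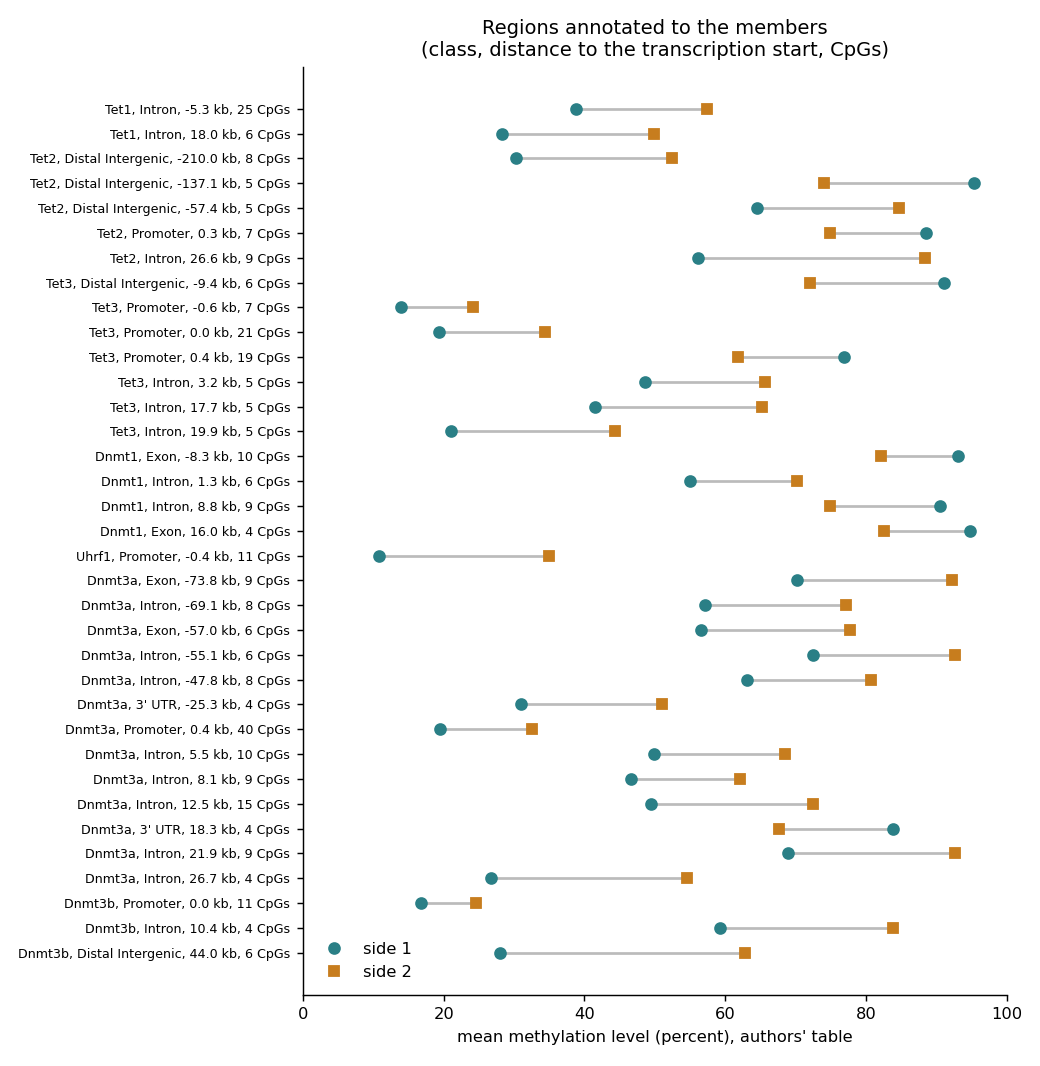
Mean methylation (percent, x axis) on side 1 (circles) and side 2 (squares) of the authors' table for the 35 regions, 1 row each, labelled with gene, class, distance to the start in kilobases and CpGs. Side 1 is the left point in 27 rows, and in 12 of the 13 rows of Dnmt3a.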

How the data were processed

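Per the labels, single-cell RNA sequencing covered 2 wild type and 2 Gulo-/- mouse kidney samples. The deposited matrices hold unnormalized UMI counts for genes in barcodes; no source used here names the counting tool. Per the submitters' processing notes, the build was mm10, with Seurat 2.3.4 and MACS2 2.1.2 named. For bisulfite data, the authors deposited 1 table of regions, with the mean methylation fraction of both sides, CpGs and annotation. It holds a signed area score that was taken as deposited and not used. The authors' deposited marker table, with a p-value and a natural log ratio per gene, was read only for which genes it lists.

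Barcodes were kept from 500 UMIs and 200 genes upward when mitochondrial UMIs made up 50% or less. Doublets were taken as the top Scrublet scores, 0.8% of barcodes per 1000 (20, 559, 28 and 1559 removed), since the tool's own threshold found 0 in 1 deep library. A barcode entered a gate with at least 3 UMIs from at least 2 of its markers, when that type's scaled marker share was at least 0.15 and at least 2 times the next type's. UMI counts were summed per library and gate and tested with edgeR 4.0.16 (TMM, filterByExpr, robust quasi-likelihood test, Benjamini-Hochberg adjusted p under 0.05 over all genes tested). Fits across gates had the library as a block. R 4.3.3, Python 3.11.15 and scanpy 1.11.5 were used. The genotype test was tried on counts simulated from the proximal tubule means with a fixed spread. It called 12 of 50 genes set to a fold of 2 and 48 of 50 set to 4. It called 7 of 49 tested genes set to 0.5, 41 of 50 set to 0.25 and 5 of 10586 unchanged genes. Most differences of 2-fold were thus missed there, so a member not called is not shown to be unchanged. Alternatives were DESeq2 1.42.0, no filter, each library left out, replicate and sex blocks, a 25% mitochondrial limit, doublets kept, a stricter gate with a 4 times lead and, chosen after seeing the data, other treatments of shared barcodes, 2 more interactions and the barcodes of dividing cells.

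Replicate numbers are shared between genotypes, but nothing in the labels says that a number marks a shared source. The text names all 8 genes and all of their regions or ranges of them, list genes that were called with up to 4 others per list, and 3 genes of like pattern for each member with at least 400 UMIs. Some list genes are not reported here. The members and lists were chosen with earlier results of these data known. Sequences are from RefSeq, GRCm38.p6. Unused columns of other samples numbered 0.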

Additional observations from a re-analysis of the deposited data

How the results depend on the processing

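No member was called between genotypes in any gate or interaction under any alternative run, except Tet3 over all kept barcodes without the filter (1 member called). The counts of all genes were less steady. With DESeq2 they were 2497 over all kept barcodes, 403 in the proximal tubule, 66 in endothelial cells, 12 in the thick ascending limb (4 higher and 8 lower, beside 40 and 42 with edgeR), 2 in macrophages and monocytes, and 127 for the endothelial interaction (8 higher and 119 lower, beside 55 and 236). With no filter they were 2069, 1012, 290, 143 and 107 for the first 5 of these. With the replicate block they were 0, 635, 84, 164 and 225 and no member was called; the correlation of same-numbered libraries' deviations was -0.02 to 0.22 over 2 pairs, so the numbers were not taken as pairs. With the sex block the proximal tubule had 3 and endothelial cells 0. Endothelial counts were 3 with the 25% mitochondrial limit and 39 with the stricter gate. With shared barcodes kept in both libraries the proximal tubule had 112 and endothelial cells 55, and with them removed from both endothelial cells had 9.

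Leaving out 1 library gave 0 to 720 genes over all kept barcodes (720 without Gulo-/- replicate 1) and 9 to 437 in the proximal tubule (437 without wild type replicate 1, 308 without wild type replicate 2, 9 without Gulo-/- replicate 1). Endothelial cells gave 9 to 225 (66 without wild type replicate 1, 9 without 2, 225 without Gulo-/- replicate 1, 71 without 2). The thick ascending limb gave 15 to 145 (144 without wild type replicate 1, 15 without 2, 145 without Gulo-/- replicate 1), and macrophages and monocytes 0 to 150 (112 without wild type replicate 1, 64 without 2, 150 without Gulo-/- replicate 1). Interactions gave 89 to 462 for endothelial cells (462 without wild type replicate 2, 157 without Gulo-/- replicate 1, 89 without 2), 2 to 249 for the thick ascending limb (36 without wild type replicate 2, 2 without Gulo-/- replicate 2), and 2 to 66 for macrophages and monocytes (4 without wild type replicate 1, 66 without 2, 6 without Gulo-/- replicate 1, 2 without 2). The causes were not tested. Between gates, members called numbered 1 to 2 in the thick ascending limb and 1 in endothelial cells when 1 library was left out, and 1 to 2 in macrophages and monocytes. They numbered 3 without the filter and 2 with DESeq2 or the 25% mitochondrial limit in macrophages and monocytes.

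Sign changes touched uncalled values only. Leaving out 1 library moved the genotype difference of Tet1 over all kept barcodes between -0.51 and 1.07, that of Tet3 between -0.57 and 0.22 in endothelial cells, between -0.26 and 0.54 in macrophages and monocytes and between -0.0082 and 1.41 in the thick ascending limb, and there that of Tet2 between -0.62 and 0.43 and that of Dnmt3a between -0.997 and 0.36. Between gates it moved Tdg in the thick ascending limb between -0.047 and 0.23 and Tet2 in macrophages and monocytes between -0.29 and 0.095. Other settings that turned a sign were the 25% limit for Tet1 over all kept barcodes (-0.012), shared barcodes removed from both for Tet3 in endothelial cells (0.042), the replicate block for Dnmt3a in the thick ascending limb (0.00049) and no filter for Tdg between the thick ascending limb and the proximal tubule (-0.13). Of the members' regions, 17 had a difference of at least 20 points and 30 had at least 5 CpGs. Annotated to any gene, 30 regions overlapped the members' RefSeq gene bodies. The 25% limit left 9 barcodes in 1 library of the thick ascending limb, and removing shared barcodes from both left 16 there and 9 in macrophages and monocytes, so these were not run. UMI totals of 127 to 3380 per gene limit every genotype comparison.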
